A study of Mus musculus with 18 samples.

Results

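MHC class I molecules and the machinery that loads them with peptide were followed through 10 genes, H2-K1, H2-D1, B2m, Tap1, Tap2, Tapbp, Psmb8, Psmb9, Nlrc5 and Cd274, taken by gene name from a table of 52636 genes. Each name matched 1 row, and all 10 genes had counts in each of the 17 libraries. The libraries came from mouse epidermal cells of 3 stages: mock-treated skin, skin that had received DMBA and TPA but lay beside the tumors (treated skin), and papillomas (tumors). At each stage, mice with floxed Zfp36 alleles and no Cre (Zfp36 fl/fl, n = 3 per stage) were compared with littermates in which a Cre under the human keratin 14 promoter deleted the gene (Zfp36 ΔK14, called ΔEP, n = 3 per stage, or n = 2 in mock skin for a reason given below). All mice carried the floxed alleles on a C57BL/6 background, and the product of Zfp36, tristetraprolin (TTP), binds RNA and speeds the decay of mRNAs whose 3′ ends carry AU-rich elements (AREs). DMBA is the mutagen that initiates skin tumors, and TPA is the phorbol ester that promotes them. The keratin 14 promoter is active in basal epidermis and also in hair follicles, so the deletion covered both. Cells were sorted as EpCAM+ CD45- CD140a- CD31-, according to the methods, while the source label reads whole skin and the labels describe both whole-tissue and sorted-cell extractions. The labels give no age and no key that ties libraries to animals, so p-values measure the spread between these libraries.

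Class I molecules show peptides from inside the cell to CD8 T cells. Proteins are cut by the proteasome, whose catalytic subunits are exchanged for Psmb8 (LMP7) and Psmb9 (LMP2) to form the immunoproteasome, and the Tap1/Tap2 transporter carries the peptides into the endoplasmic reticulum. There tapasin (Tapbp) holds empty molecules at the transporter, where the heavy chains encoded by H2-K1 and H2-D1 fold with β2-microglobulin (B2m). Interferons raise these genes, and Nlrc5 is the transactivator that assembles on their promoters with the RFX, CREB and NF-Y factors. Cd274 encodes PD-L1, a ligand that restrains T cells and is also raised by interferon γ.

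In the GRCm38 build, 7 of the 10 genes lie on chromosome 17, between Tapbp at chr17:33915899-33929292 and H2-D1 at chr17:35262730-35267499, and B2m, Nlrc5 and Cd274 lie on chromosomes 2, 8 and 19. Tap1 and Psmb9 lie head to head there. RefSeq places the start sites of these genes 226 bases apart, at 34187556 for Tap1 on the plus strand and at 34187330 for Psmb9 on the minus strand, and 275 of the 300 bases in their promoter windows are the same DNA. The window of Tap1 is shown for that reason, and those of H2-K1, H2-D1 and B2m because these genes did not pass the test between tumors and treated skin while Psmb9 did in both genotypes and Tap1 in ΔEP (below). Each window runs from 250 bases before to 50 bases after the RefSeq start site (GRCm38.p6), is written 5′ to 3′ on the strand of the gene, and was available for 8 of the 10 genes. Capitals mark matches on either strand to 5 motifs: GAAA and GAAA with 2 bases between them (interferon-stimulated response element), TTCNNNGAA (gamma-activated site), TGACG (core of the CRE), GGGA and CC with 4 bases between them (NF-κB), and ATTGG (Y box).
Tap1, chr17:34187306-34187605, plus strand: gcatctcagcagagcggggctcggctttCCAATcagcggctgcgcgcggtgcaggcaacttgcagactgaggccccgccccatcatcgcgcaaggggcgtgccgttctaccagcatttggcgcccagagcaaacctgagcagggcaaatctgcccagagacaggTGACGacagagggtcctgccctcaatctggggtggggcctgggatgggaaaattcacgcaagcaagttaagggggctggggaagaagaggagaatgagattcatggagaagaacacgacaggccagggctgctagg
H2-K1, chr17:34000298-34000597, minus strand: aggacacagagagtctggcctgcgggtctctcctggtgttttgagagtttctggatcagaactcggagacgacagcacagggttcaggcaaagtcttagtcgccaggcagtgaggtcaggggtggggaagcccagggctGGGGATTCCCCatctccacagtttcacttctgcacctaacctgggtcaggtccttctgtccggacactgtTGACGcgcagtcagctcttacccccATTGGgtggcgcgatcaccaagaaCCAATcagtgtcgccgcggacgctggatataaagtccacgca
H2-D1, chr17:35262844-35263143, plus strand: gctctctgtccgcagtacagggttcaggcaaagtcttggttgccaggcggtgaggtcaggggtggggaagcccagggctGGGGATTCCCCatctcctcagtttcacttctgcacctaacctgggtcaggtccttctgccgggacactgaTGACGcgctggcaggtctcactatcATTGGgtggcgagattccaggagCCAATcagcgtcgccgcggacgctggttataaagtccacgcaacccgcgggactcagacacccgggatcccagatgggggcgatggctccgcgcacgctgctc
B2m, chr2:122147437-122147736, plus strand: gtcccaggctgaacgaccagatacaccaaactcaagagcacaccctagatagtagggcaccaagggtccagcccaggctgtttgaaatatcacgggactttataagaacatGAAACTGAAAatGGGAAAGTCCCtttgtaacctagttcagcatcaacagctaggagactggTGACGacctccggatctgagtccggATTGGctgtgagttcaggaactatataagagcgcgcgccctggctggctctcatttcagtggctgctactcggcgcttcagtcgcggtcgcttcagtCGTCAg

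A CRE core lay upstream of a Y box in the H2-K1, H2-D1 and B2m windows, and the Tap1 and Psmb9 windows held 1 CRE core and 1 Y box each. The CRE core was in 5 of the 8 genes with a window and in 20.8% of all 32851 promoter windows, and the Y box in 6 of 8 and in 37.4%. The matches of Tap1 and Psmb9 are the same bases of their shared DNA, counted for both genes, so these windows are not independent. The NF-κB motif matched in H2-K1, H2-D1 and B2m and in 20.7% of all windows. In both heavy chain genes it lay within the same run of 11 letters, GGGGATTCCCC. The pattern for the interferon-stimulated response element matched in B2m alone among the 8 (3.44% of all windows), and that for the gamma-activated site in Psmb8 alone (8.30%). Each motif was searched as 1 fixed pattern, so a window without a match, such as those of H2-K1 and H2-D1, may still hold a variant of the element. The full CRE, TGACGTCA, matched in 0 of the 8 windows and in 1.79% of all. These matches overlap where sites adjoin, and they describe letters and not binding.

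AREs are the sequences through which TTP acts, and among the 10 genes they were concentrated in Cd274. The heptamer TATTTAT occurred 4 times in its longest annotated 3′ untranslated region of 2683 bases (GENCODE, GRCm38) and once in that of Nlrc5 (1197 bases). The other 8 genes had none, and 5776 of 21062 genes with such a region (27.4%) had at least 1. The pentamer ATTTA occurred 11 times in Cd274, 3 times in Nlrc5, once each in B2m, Tap1 and Psmb9 and in 65.7% of all genes. The 3′ untranslated region of Cd274 is longer than the median of 1085 bases over all genes. The sites are shown with the heptamer in capitals, because TTP binds this motif.
Cd274 site 1, chr19:29385710-29385734: agtgccttcTATTTATtttgagtct
Cd274 site 2, chr19:29387204-29387228: atgtatggaTATTTATgctgcttcc
Cd274 site 3, chr19:29387933-29387957: aacacattcTATTTATtcattttat
Cd274 site 4, chr19:29388071-29388095: ttaataaatattttTATTTATtaaa
Nlrc5 site, chr8:94526810-94526834: ttttttaagTATTTATaagcacctt

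Levels are given as CPM, counts divided by the scaled library size. Mock ΔEP replicate 3 repeated replicate 2 in all genes, so the pair was used as 1 library. Total counts ran from 2808550 to 9617985, with the lowest in tumor fl/fl replicate 1. Zfp36 itself was at 152 to 713 CPM in the fl/fl libraries and at 10.03 to 38.4 CPM in the ΔEP libraries, with no overlap, and all libraries held the keratinocyte genes Krt5 and Krt14 (at least 1422 and 602 CPM). The 17 leukocyte markers, which match 18 rows of the table, summed to between 9.62 and 30.2 CPM in every library, with no more than 1.5 CPM of Ptprc (CD45), 0.649 CPM of Cd3e, 9.37 CPM of Cd68 and 7.19 CPM of Cd52. The 8 Langerhans cell markers, several of them class II genes, summed to 24.2 to 42.4 CPM in mock skin, 67.3 to 151 CPM in fl/fl tumors, 209.8 to 255 CPM in ΔEP tumors, 45.8 to 86.1 CPM in 5 treated libraries and 297 CPM in treated ΔEP replicate 3, while Cd207 (langerin) was at most 1.44 CPM and had 0 counts in all tumors. Fibroblast markers summed to 507 to 1680 CPM in mock skin and 31.1 to 387 CPM in tumors, although the sort was CD140a-. Ifng had 0 counts in all 17 libraries, which at 3 counts allows up to 1.5 CPM in the shallowest. Class II transcripts did differ, with a summed level of 81.2 to 127.5 CPM in ΔEP tumors, 21.3 to 41.5 in fl/fl tumors and 289 in treated ΔEP replicate 3, and the part of these cell types in the results below was not tested. In bulk libraries, fewer cells of a type and less RNA per cell cannot be told apart.

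Per kilobase of merged exon, B2m was far above the other 9 genes. The median level over the 17 libraries was 1080 CPM per kb for B2m, 120 for H2-K1, 113 for H2-D1 and 19.4 for Tapbp. Tap1 (6.85), Nlrc5 (5.49), Tap2 (4.63) and Psmb8 (3.62) formed a middle group, with Psmb9 (1.95) and Cd274 (1.19) lowest. B2m exceeded H2-K1, H2-D1 exceeded Tapbp and Tapbp exceeded Tap1 in 17 of 17 libraries. The neighbors H2-K1 and H2-D1, Nlrc5 and Tap2, and Tap2 and Psmb8 kept the order of their medians in 11 of 17 libraries each, so those levels were not separated. H2-K1, H2-D1 and B2m rested on at least 324 counts per library and Nlrc5 on 27 or more. Psmb8 had as few as 11, Psmb9 as few as 10 and Cd274 as few as 3. In tumors, Psmb9 rested on 12, 31 and 10 counts in fl/fl and on 18, 20 and 32 in ΔEP.

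Mock skin held the highest value of all 10 genes and the lowest of 9, all but Cd274. Replicate 1 of both genotypes held far less of every one of the 10 transcripts than the other 3 mock libraries. The mean of the other mock libraries (n = 3) over that of these replicates (n = 2) was 7.13 for H2-K1, 4.59 for H2-D1, 7.83 for B2m, 6.92 for Tap1, 5.24 for Tap2, 4.08 for Tapbp, 16.6 for Psmb8, 7.95 for Psmb9, 12.4 for Nlrc5 and 5.97 for Cd274. All 10 lay below every other mock library in both replicates, as did 30.3% of the 18252 genes measured well enough across all groups. The split was seen in the data and is described without a test.

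Genes of the growing hair follicle marked the same replicates from the opposite side. A list of 9 such genes, chosen after their values were seen (Krt25, Krt27, Krt71, Krt31, Krt35, Lef1, Hoxc13, Msx2 and Shh), summed to 1654 CPM in mock fl/fl replicate 1 and 1681 CPM in mock ΔEP replicate 1. The other mock libraries held 11.8 to 17.6 CPM. Treated skin lay between, at 395.5 to 1077 CPM, and tumors held 6.25 to 74.7 CPM. Krt71, a keratin of the inner root sheath, was at 572 and 469 CPM in the mock replicates numbered 1 and at most 1.44 CPM in the other mock libraries. Within treated skin, the ΔEP library with the most hair follicle RNA (replicate 1, 1077 CPM) had the least H2-K1 (196 CPM) and Psmb8 (2.5 CPM), and the ΔEP library with the least (replicate 3, 395.5 CPM) had the most of both (411 and 19.5 CPM). Melanocyte markers also summed higher in mock replicate 1 (318 CPM for fl/fl and 278 CPM for ΔEP) than in the other mock libraries (at most 93.0 CPM). Keratinocyte markers were the reverse, at 6169 and 6526 CPM against 26507 CPM or more. Whether hair growth accounts for the class I levels was not tested.

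**Figure D1:**
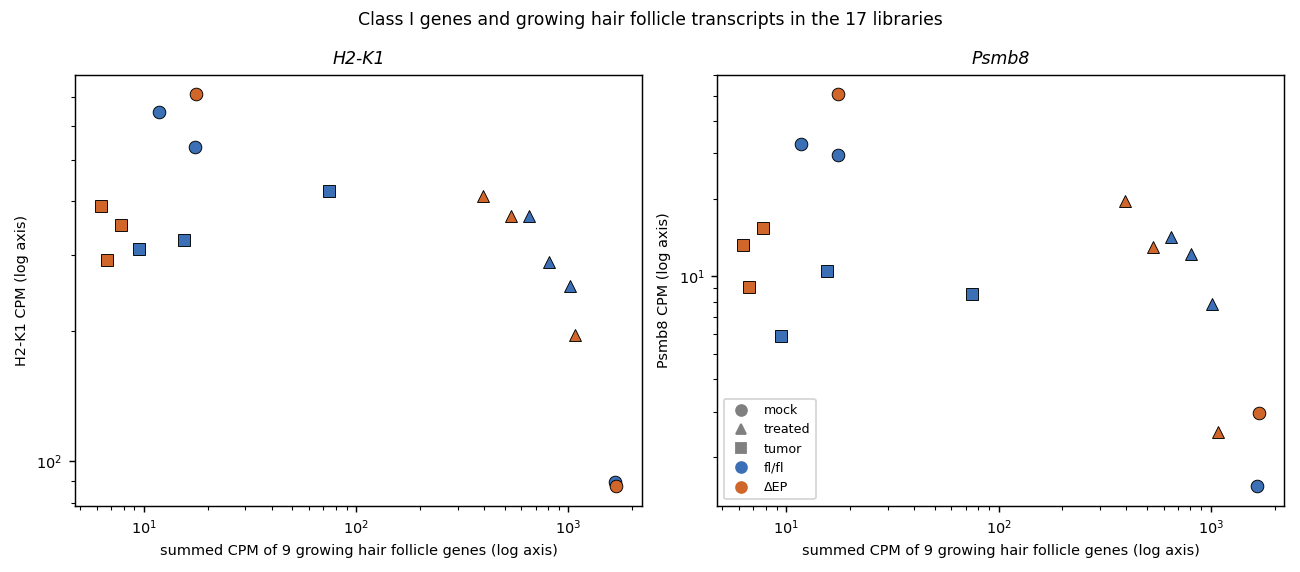
Levels of H2-K1 (left) and Psmb8 (right) in CPM against the summed CPM of 9 growing hair follicle genes, both on log axes, with 1 point per library, shape for stage and color for genotype. The mock libraries split into 2 with 1654 and 1681 CPM of follicle RNA and H2-K1 at 89.4 and 87.4 CPM, and 3 with 11.8 to 17.6 CPM of follicle RNA and H2-K1 at 534 to 710 CPM, treated skin lies between in follicle RNA and H2-K1, and tumors combine low follicle RNA with H2-K1 of 292 to 423 CPM.

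Few of the 10 genes passed the tests, and their share was near that of all genes. Calls required a change over 2-fold and an adjusted p below 0.05. Loss of Zfp36 gave 0 of 10 calls in mock skin, where 0% of 15920 genes were called, 0 of 10 in treated skin (0.00616% of 16232) and 0 of 10 in tumors (0.0284% of 14067). At an unadjusted p under 0.05, none of the 10 passed in mock or treated skin. In tumors, B2m (p 0.0138, adjusted p 0.257) and Nlrc5 (p 0.0470, adjusted p 0.349) did so by edgeR's quasi-likelihood test. Adjusted values this high mean that many other genes had a p as small. DESeq2 and edgeR's exact test also called none of the 10. In mock skin, 253 of all genes had an unadjusted p under 0.05, and DESeq2 called 3 and the exact test 2. Treated against mock skin gave 0 of 10 in both genotypes, where 0% of genes were called in either. There, 913 genes in fl/fl and 763 in ΔEP had an unadjusted p under 0.05, none of the 10 among them, and DESeq2 called 118 and 61 genes and the exact test 104 and 67. Tumors against mock skin gave 0 of 10 in fl/fl (4.11% of genes) and in ΔEP (14.3%), where DESeq2 and the exact test each called Tap1, Psmb9 and Nlrc5 lower. Tumors against treated skin gave 1 of 10 in fl/fl, Psmb9, where 18.0% of genes were called in either direction and 10.5% lower, and 3 of 10 in ΔEP, Tap1, Psmb9 and Nlrc5, where 26.0% were called and 15.5% lower. The median log2 fold change of the 10 genes was -0.38 in fl/fl and 0.00 in ΔEP, against -0.02 and -0.03 over all genes tested. The 3 tests of whether a step differed between genotypes called 0 of 10, where 0% of genes were called for treated and for tumor against mock skin and 0.0118% for tumor against treated skin. At an unadjusted p under 0.05 these tests gave 257, 1423 and 2243 genes, none of the 10 among them, and DESeq2 called 0, 28 and 206.

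The heavy chains overlapped between the groups of each comparison. H2-K1 was at 89.4, 534 and 646 CPM in mock fl/fl skin and at 87.4 and 710 CPM in mock ΔEP skin. Treated skin held 289, 371 and 254 CPM for fl/fl and 196, 369 and 411 CPM for ΔEP, and tumors held 326, 423 and 311 CPM for fl/fl and 292, 353 and 390 CPM for ΔEP. Treated skin and tumors lay inside the range of mock skin. H2-D1 ran from 89.9 to 490 CPM in mock skin, from 171 to 316 CPM in treated skin and from 232 to 379 CPM in tumors. Tumors against treated skin gave a log2 fold change of 0.19 (SE 0.20) for H2-K1 and 0.36 (SE 0.20) for H2-D1 in fl/fl, and of -0.01 (SE 0.27) and 0.40 (SE 0.23) in ΔEP, by edgeR's quasi-likelihood test, with adjusted p of 0.201 or more. The 95% intervals of these 4 differences ran from -0.64 to 0.93, so a change beyond 2-fold lay outside them. Unscaled library totals turned the direction of H2-D1, to -0.13 in fl/fl and -0.04 in ΔEP, and of H2-K1 in fl/fl, to -0.27. H2-D1 and H2-K1 share 109 windows of 50 bases exactly, 6.94% of those in the H2-K1 transcript, and 14.3% of the H2-D1 windows also occur in other genes, so reads in those stretches could have been split between copies.

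B2m, the shared light chain, was the most abundant of the 10 transcripts. Mock fl/fl skin held 160, 1749 and 1328 CPM, and mock ΔEP skin 280 and 2099 CPM. Treated skin held 734, 1058 and 500 CPM for fl/fl and 414, 792 and 1098 CPM for ΔEP. In tumors it was at 1037, 1299 and 1269 CPM for fl/fl and at 803, 903 and 929 CPM for ΔEP. The ΔEP tumors all lay below the fl/fl tumors, the only pair of genotype groups among the 10 genes and 3 stages that did not overlap. The share of all genes whose genotype groups separated in this way was not counted, so the separation is only a description. The log2 fold change of B2m was -0.59 (SE 0.19), with an unadjusted p of 0.0138 and an adjusted p of 0.257 from edgeR's quasi-likelihood test, which did not pass. The adjusted p ran from 0.0156 to 0.796 over the alternatives, none of which gave a 2-fold change. B2m did not pass between tumors and treated skin in either genotype (0.64, SE 0.28, adjusted p 0.128 in fl/fl and 0.10, SE 0.31, adjusted p 0.819 in ΔEP, edgeR).

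The transporter separated from the heavy chains in tumors. Tap1 was at 37.5, 28.5 and 18.3 CPM in fl/fl tumors against 55.5, 63.8 and 41.3 CPM in treated fl/fl skin. In ΔEP, tumors held 24.3, 28.4 and 30.1 CPM against 35.6, 55.2 and 68.2 CPM in treated skin. Every tumor lay below every treated library of its genotype. How many of all genes separated in this way was not counted, here or for the genes below. Of all genes tested, 10.5% in fl/fl and 15.5% in ΔEP were called lower. The log2 fold change of Tap1 was -0.97 (SE 0.28, adjusted p 0.0404, edgeR) in fl/fl, which fell just short of 2-fold and so was not called, and -1.03 (SE 0.25, adjusted p 0.0122, edgeR) in ΔEP, which was called. Mock skin held 15.9, 111 and 117 CPM for fl/fl and 22.7 and 173 CPM for ΔEP, so tumors overlapped mock skin only through its replicates numbered 1. Tap2, the partner subunit, followed with smaller differences. It was at 8.82 to 17.5 CPM in fl/fl tumors and 18.2 to 21.4 CPM in treated fl/fl skin, without overlap, and at 9.81 to 15.1 and 12.2 to 19.4 CPM in ΔEP, with overlap. The log2 fold changes of -0.61 (SE 0.27, adjusted p 0.135, edgeR) and -0.47 (SE 0.27, adjusted p 0.198, edgeR) did not pass. Tapbp, which bridges the transporter and the heavy chain, was at 45.1 to 118 CPM in fl/fl tumors and 70.4 to 122 CPM in ΔEP tumors and overlapped treated skin in both genotypes.

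Of the immunoproteasome subunits among the 10 genes, Psmb9 was called lower in tumors than in treated skin and Psmb8 was not. A difference between these genes was not tested, and the Psmb9 calls were lost in several other fits (below). Psmb9 was at 6.0, 4.72 and 3.27 CPM in fl/fl tumors against 10.9, 10.9 and 8.34 CPM in treated fl/fl skin. In ΔEP, tumors held 4.01, 3.62 and 6.06 CPM against 7.15, 10.02 and 11.3 CPM in treated skin. The groups did not overlap in either genotype, a separation that was not counted over all genes. The log2 fold changes were close to each other, at -1.16 (SE 0.32, adjusted p 0.0343, edgeR) in fl/fl and -1.15 (SE 0.32, adjusted p 0.0213, edgeR) in ΔEP. Of all genes tested, 10.5% and 15.5% were called lower. Psmb8 held 10.5, 8.52 and 5.88 CPM in fl/fl tumors against 12.2, 14.2 and 7.82 CPM in treated skin, and 9.14, 15.4 and 13.3 CPM in ΔEP tumors against 2.5, 13.0 and 19.5 CPM. These ranges overlapped, and the log2 fold changes were -0.49 (SE 0.33, adjusted p 0.299) and 0.01 (SE 0.56, adjusted p 0.988) by edgeR. In mock skin, Psmb8 spanned the widest fold range of the 10 genes, from 1.55 CPM in fl/fl replicate 1 to 50.7 CPM in ΔEP replicate 2. Reads cannot be assigned with certainty where these genes overlap others, since use of strand is not given in the sources used here. Psmb9 and Tap1 share 212 exonic bases in opposite directions, 3.87% of the Tap1 and 5.79% of the Psmb9 exons. On the other strand, Gm20496 covers 14.7% of the Psmb8 exon bases and part of Tap2. Also on the other strand, Gm19412 covers 24.9% of the Tapbp exon bases, Gm15821 14.1% of Tap2 and AC119228.1 14.1% of Cd274. Zbtb22 covers 4.11% of Tapbp on the same strand.

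Nlrc5, the transactivator of the class I genes, fell in ΔEP tumors. It was at 19.4, 19.9 and 21.96 CPM there against 27.9, 73.8 and 60.8 CPM in treated ΔEP skin, without overlap. Such separation was not counted over all genes. The log2 fold change was -1.51 (SE 0.34, adjusted p 0.00932, edgeR). In fl/fl the tumors were spread from 13.5 CPM in replicate 1, on 27 counts, over 34.0 CPM in replicate 3 to 82.0 CPM in replicate 2, against 51.2, 58.1 and 46.7 CPM in treated skin. The fl/fl difference of -0.26 (SE 0.52, adjusted p 0.732, edgeR) did not pass. The difference between genotypes in this step was -1.23 (SE 0.67, unadjusted p 0.0881, adjusted p 0.452, edgeR), so the response of Nlrc5 was not shown to depend on genotype. Between tumors, ΔEP against fl/fl gave -1.25 (SE 0.54, adjusted p 0.349, edgeR). Without tumor fl/fl replicate 1 this became -1.63 with an adjusted p of 0.00554 and was the only member call in that fit, 1 lower of 10 where 9.58% of 15463 genes were called lower. Over the alternatives the adjusted p ran from 0.00554 to 0.782.

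Cd274, the gene with the most AREs, had the lowest median level per kb. It was at 1.5, 4.41 and 2.94 CPM in fl/fl tumors and 2.90, 7.60 and 5.11 CPM in ΔEP tumors, and at 4.0, 8.74 and 3.13 CPM in treated fl/fl skin and 2.68, 4.29 and 7.58 CPM in treated ΔEP skin. In mock skin it was at 1.55, 7.44 and 10.8 CPM for fl/fl and 1.89 and 12.6 CPM for ΔEP. The genotypes overlapped at every stage. The difference of ΔEP from fl/fl was 0.15 (SE 1.05) in mock skin, -0.10 (SE 0.49) in treated skin and 0.58 (SE 0.50, adjusted p 0.635, edgeR) in tumors, where its 95% interval ran from -0.58 to 1.73. Differences within that interval remained possible, and its width reflects the spread between libraries as well as the low counts.

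**Figure D2:**
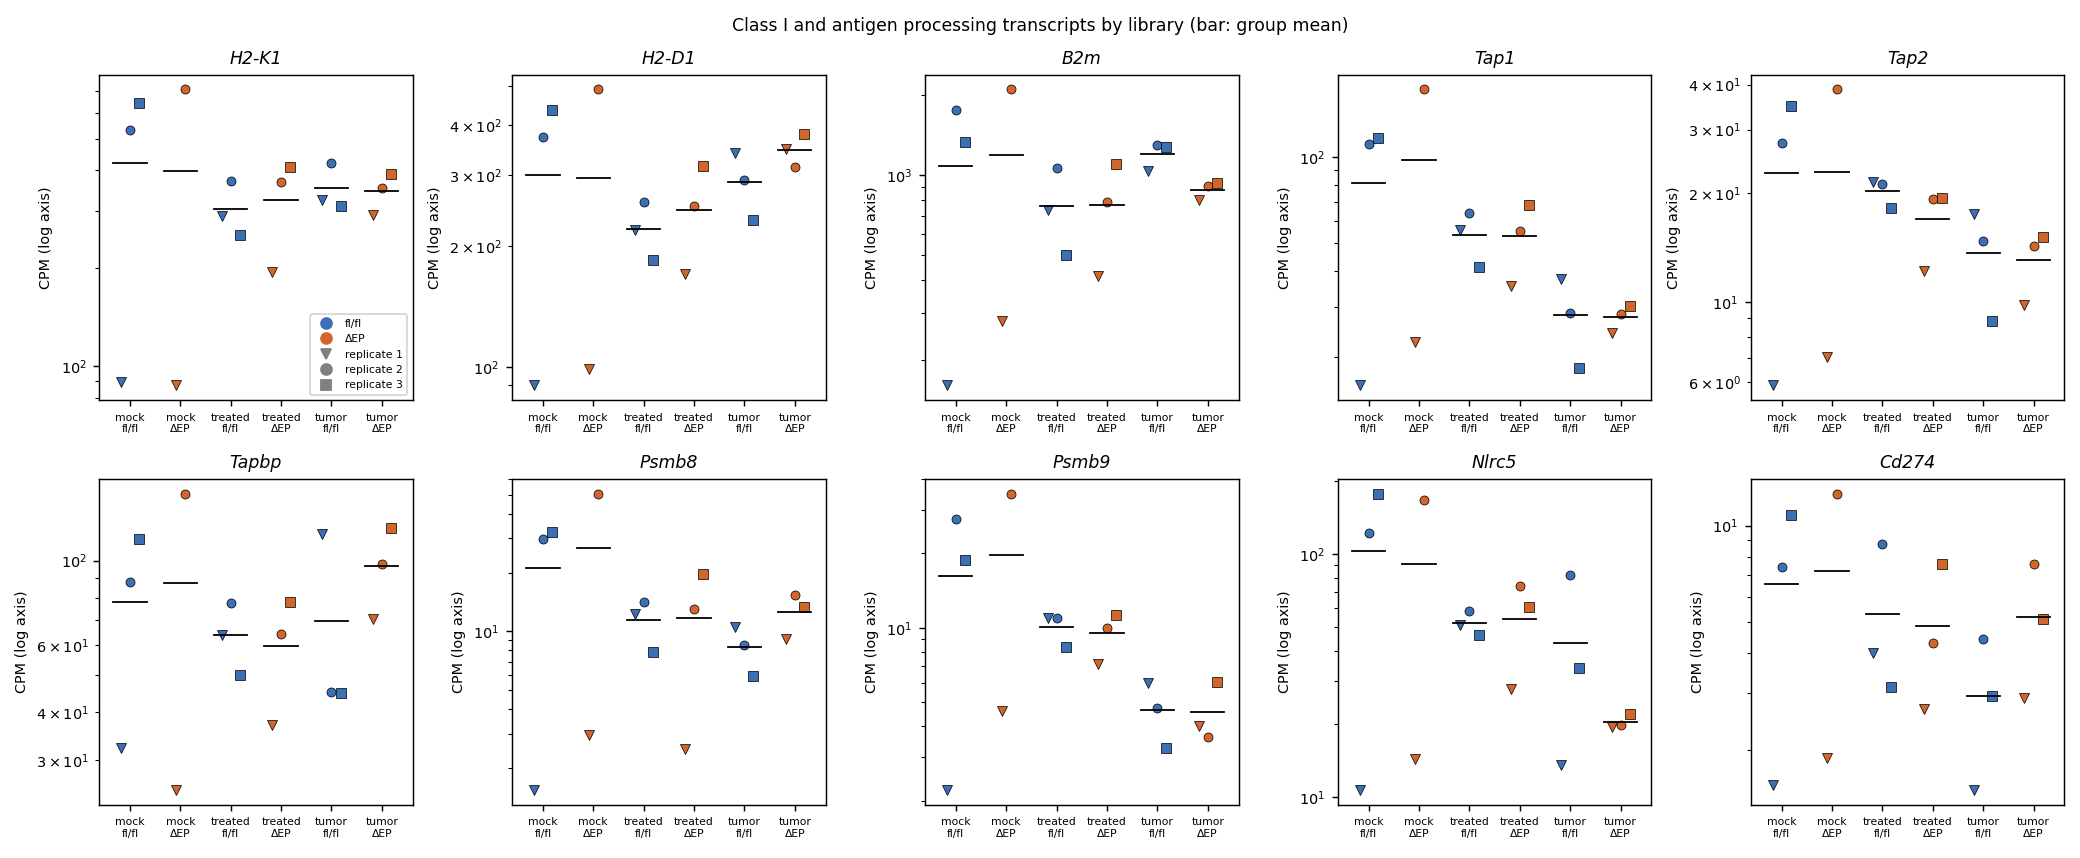
Level of each of the 10 genes in CPM on a log axis in 17 libraries, by group, with color for genotype, marker shape for replicate number and a bar at the group mean. Replicate 1 of both mock groups is the lowest mock library in every panel, and for Tap1 and Psmb9 every tumor lies below the treated libraries of its genotype. How many of all genes separate tumors from treated skin in this way was not counted.

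The calls changed with the libraries in the fit. Fitted with all 17 libraries at once, so that the spread within mock skin entered every test, 0 of the 10 genes were called in tumors against mock skin (17.6% of genes in fl/fl and 16.8% in ΔEP) and in tumors against treated skin (15.2% and 19.2%). Leaving out mock fl/fl replicate 1 gave 4 lower in treated against mock fl/fl skin (Tap1, Psmb8, Psmb9 and Nlrc5, with 7.16% of genes called lower) and 4 lower in tumors against mock fl/fl skin (Tap1, Tap2, Psmb8 and Psmb9, with 11.5%). In ΔEP, tumors against mock skin gave 7 of 10 lower without mock replicate 1, all but H2-D1, Tapbp and Cd274 (13.4% of genes called lower), and 5 of 10 higher without mock replicate 2 (H2-K1, H2-D1, B2m, Tapbp and Psmb8, with 13.1% called higher). The direction against mock ΔEP skin thus turned with which of its 2 libraries was kept. Psmb9 in fl/fl tumors against treated skin lost its call when any library other than tumor replicate 1 was left out, at -1.09, -1.11 and -1.27 without treated replicates 1, 2 and 3 and -1.17 and -0.96 without tumor replicates 2 and 3. Without tumor replicate 1 it was -1.30, and Tap1 was also called, at -1.18. In ΔEP, Nlrc5 kept its call in each fit that left out 1 library, while Tap1 lost it without treated replicate 2 (-0.97), treated replicate 3 (-0.81) or tumor replicate 1 (-0.93). Psmb9 lost it there too (-1.08, -1.01 and -1.05) and without tumor replicate 2 (-0.97).

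**Figure D3:**
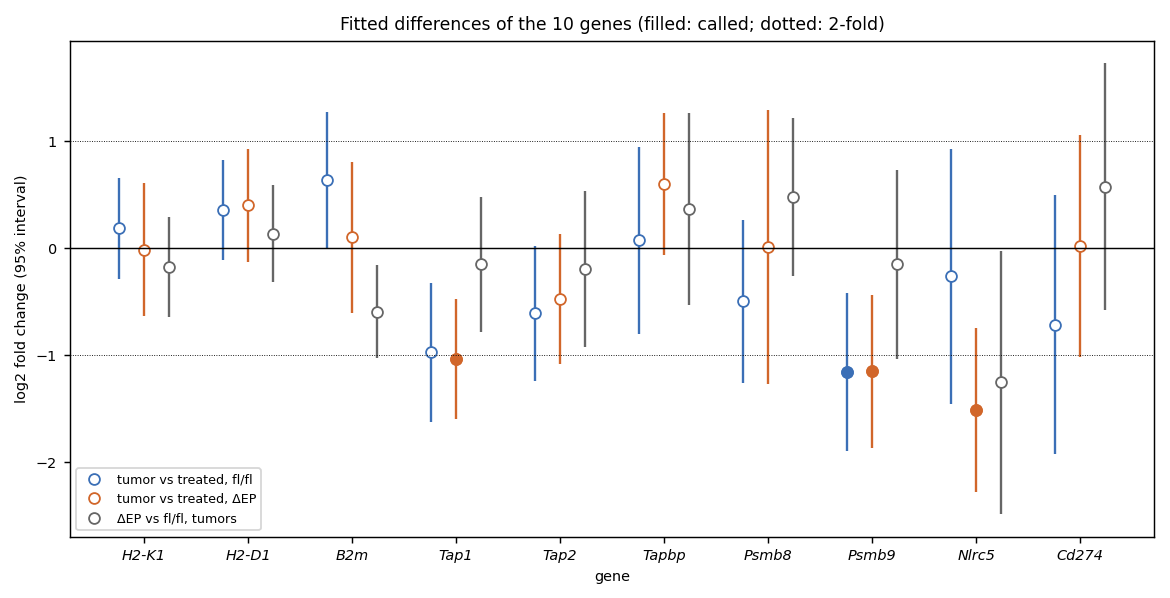
Fitted log2 fold changes of the 10 genes with 95% intervals for tumors against treated skin in fl/fl and in ΔEP and for ΔEP against fl/fl in tumors, with called values filled and dotted lines at 2-fold. Psmb9 is near -1.15 in both genotypes, Tap1 near -1, and H2-K1 and H2-D1 lie between -0.17 and 0.40.

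Ratios within a library need no scaling, so the other 8 genes were also expressed relative to the summed counts of H2-K1 and H2-D1. This measure was chosen after the data were seen. Tap1 counts were 3.37% to 5.63% of heavy chain counts in the 6 tumors, 8.88% to 10.9% in the 6 treated libraries and 8.88% to 14.4% in the 5 mock libraries, including both mock replicates numbered 1. Psmb9 was at 0.543% to 0.902% in tumors, 1.55% to 2.15% in treated skin and 1.23% to 3.02% in mock skin, and Tap2 at 1.53% to 2.63%, 2.67% to 4.22% and 3.05% to 3.77%. For these 3 genes every tumor lay below every skin library of both genotypes, as was so for 3.90% of the 18252 genes measured the same way.

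The tumors and skin were compared by exact permutation of stage labels within genotype, 2-sided, with adjustment over 22 tests. Against treated skin, the mean log2 ratio of tumors was lower by 1.25 for Tap1 (-1.26 in fl/fl and -1.23 in ΔEP), by 1.42 for Psmb9 (-1.44 and -1.40) and by 0.81 for Tap2 (-0.92 and -0.70), each with an exact p of 0.005, the smallest the design allows, and an adjusted p of 0.0157. Against mock skin, the differences were -1.53 for Tap1, -1.72 for Psmb9 and -0.76 for Tap2, with the same exact p of 0.005 and adjusted p of 0.0157. Where tumors and skin do not overlap, this test returns its smallest p by construction. The ratios were chosen after the data were seen, so these p-values restate the separation and add no support to it. Nlrc5 was lower by 1.27 against treated skin (exact p 0.02, adjusted p 0.055), and 1 fl/fl tumor, at 11.5%, lay among the treated libraries at 7.62% to 11.9%. B2m (0.19, exact p 0.24), Tapbp (0.04, exact p 0.82), Psmb8 (-0.28, exact p 0.475) and Cd274 (-0.67, exact p 0.095) did not pass. With B2m as the denominator, Tap1, Psmb9 and Tap2 were lower by 1.44, 1.61 and 1.0 against treated skin, each again with an exact p of 0.005. A ratio shows unequal change and not which gene changed. Transcripts of other cell types also differed between the same libraries. Hair follicle genes summed to 6.25 to 74.7 CPM in tumors and 395.5 to 1077 CPM in treated skin. Fibroblast markers summed to 83.0 to 198 CPM in fl/fl tumors and 379 to 626 CPM in treated fl/fl skin, and to 31.1 to 387 CPM and 432 to 954 CPM in ΔEP. Melanocyte markers summed to 8.82 to 38.1 CPM in tumors and 51.4 to 365 CPM in treated skin. Their part in the ratios was not tested.

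Psmb9 was also set against Psmb6, the constitutive subunit whose place it takes. It stood at 4.85% to 7.06% of Psmb6 counts in tumors and 13.3% to 26.1% in treated skin, a difference in mean log2 ratio of -1.75 (exact p 0.005, adjusted p 0.0157). That p again only restates the lack of overlap, and less Psmb9 and more Psmb6 would both lower the ratio. Against mock skin the difference was -2.06 (exact p 0.05, adjusted p 0.1), and mock skin was split, with 3.71% and 8.13% in the replicates numbered 1 and 59.6% to 80.0% in the others. Psmb8 against Psmb5 (-0.60, exact p 0.325) and Psmb10 against Psmb7 (-0.03, exact p 0.935) did not pass.

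**Figure D4:**
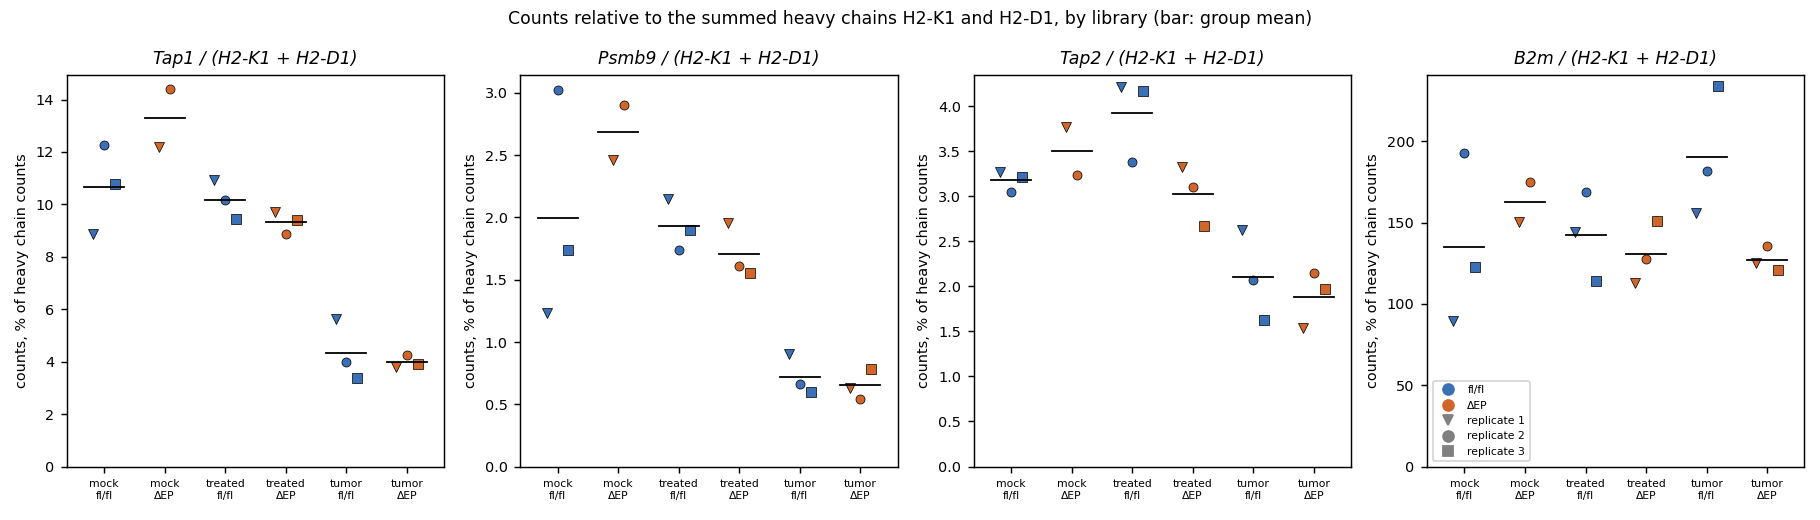
Counts of Tap1, Psmb9, Tap2 and B2m as percent of the summed H2-K1 and H2-D1 counts of the same library, by group, with 1 point per library and a bar at the group mean. All 6 tumors lie below all 11 skin libraries for Tap1, Psmb9 and Tap2, with Tap1 at most 5.63% in tumors and at least 8.88% in skin, while B2m overlaps between stages.

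Other genes of the pathway moved in both directions between treated skin and tumors. Among 19 further genes of peptide processing and loading, which include the chaperones of the endoplasmic reticulum, 5 were called higher and 0 lower in fl/fl and 8 higher and 0 lower in ΔEP, with a median of 0.72 and 0.65. Calnexin (Canx), which holds new heavy chains, rose by 1.05 on the log2 scale (SE 0.18, adjusted p 0.00689, edgeR) in fl/fl, and Pdia3, the thiol oxidoreductase of the loading complex, by 1.38 (SE 0.17, adjusted p 0.00103, edgeR) in ΔEP. Calr and Hspa5 rose in both genotypes. With unscaled library totals, which shifted the median of all genes to -0.50 and -0.47, no gene of this list was called higher and its median was 0.18 and 0.21, so these rises are relative to the bulk of genes. Of the 14 constitutive core proteasome subunits, 1 was called higher in fl/fl (Psma5) and 0 in ΔEP. Their summed TMM-scaled level was still higher in tumors, at 1659 to 2081 CPM in fl/fl and 1698 to 2153 CPM in ΔEP. Treated skin held 983 to 1122 CPM in fl/fl and 1032 to 1399 CPM in ΔEP. The TMM factors were 0.712 to 0.949 in tumors and 1.066 to 1.248 in treated skin, which raises CPM in tumors. This sum was not computed with unscaled totals, so its rise is also relative to the bulk of genes. The share of all genes that rose in this way was not counted. RLE scaling gave the same counts for the peptide processing list, 5 and 8 higher.

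Of 18 nonclassical class I genes in the table, 9 were tested in each genotype, with 2 called lower and 1 higher in fl/fl (1 and 1 with RLE scaling, 3 and 0 with library totals) and 5 lower and 0 higher in ΔEP. H2-Q7 was lower by both genotypes' tests (-1.07, SE 0.33, adjusted p 0.0476 in fl/fl and -1.42, SE 0.30, adjusted p 0.00715 in ΔEP, edgeR), as was H2-Q6 (-2.04 and -3.09), a near-identical copy whose reads may be shared with it. Cd1d1, which presents lipids, was the gene called higher. Of 30 interferon response genes, 13 were tested in fl/fl with 6 called lower, and 15 in ΔEP with 1 called lower, Cxcl9, and none was called higher. Among 29 transcription factors and receptors upstream of class I, Rfx5, a subunit of the RFX factor that Nlrc5 binds through, fell by 1.27 in fl/fl (SE 0.20, adjusted p 0.00583, edgeR), and Stat2 fell by 2.07 in ΔEP (SE 0.37, adjusted p 0.00364, edgeR). Jak1, Ifnar2 and Socs1 were called higher in both. Of the 27 tested in this list, 3 were called higher and 2 lower in fl/fl and 4 higher and 1 lower in ΔEP, but library totals gave 0 higher and 9 lower in fl/fl and 1 higher and 8 lower in ΔEP. Of 17 other checkpoint and natural killer ligands, Pvr rose in both genotypes, by 1.56 (SE 0.36, adjusted p 0.0190) in fl/fl and 2.43 (SE 0.35, adjusted p 0.00179) in ΔEP by edgeR. Each list's share of calls can be read against the 18.0% and 26.0% of all genes called. Between genotypes, no gene of these 6 lists was called at any stage.

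Across all 17 libraries, the 10 genes followed a common profile. The correlation of each gene with the mean of the 10 standardized log2 profiles, to which it contributes, was lowest for Tapbp (Pearson r = 0.83) and highest for Psmb8 (r = 0.97). Of 18242 other genes, the 10 most like this mean were Gm20496 (r = 0.97), H2-T22 (0.96), Il15ra (0.96), Slc6a8 (0.95), Lrrc1 (0.94), Parp14 (0.94), BC064078 (0.93), Parp9 (0.93), Gm15987 (0.93) and Tppp3 (0.93). Gm20496 overlaps Psmb8 and Tap2 exons, so its counts may include their reads. The points share the split within mock skin, whose part in each r was not tested, and the values are a description. H2-T22, for example, was at 6.86 and 9.71 CPM in the mock replicates numbered 1, 53.2 to 81.2 CPM in the other mock libraries, 12.5 to 32.2 CPM in treated skin and 12.7 to 23.5 CPM in tumors.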

How the data were processed

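The deposited values are raw gene counts that the authors obtained from Ovation SoLo libraries sequenced on an Illumina HiSeq. The submitters' processing notes name Trimmomatic 0.36, STAR 2.5.3, HTSeq 0.9.1, DESeq2 and mm10, while annotation release, strand setting and removal of duplicate reads are not given in the sources used here. Counting intervals would cover counting error only. The 18 columns were mapped to 6 groups by their labels. The identical columns of mock ΔEP replicates 2 and 3 were used once.

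Genes were filtered with filterByExpr, scaled with TMM and tested in R 4.3.3 with edgeR 4.0.16 (quasi-likelihood F test, 2-sided, Benjamini-Hochberg over all genes tested), each comparison on its own groups. A call needed an adjusted p under 0.05 and a fold over 2. CPM used TMM-scaled sizes from all libraries. Gene models were GENCODE for GRCm38, in which 52489 of 52636 IDs were found, and promoters were RefSeq windows. Depth was 2808550 to 9617985 counts per library. The fits were tried on simulated counts for the genotype comparison in tumors and for its interaction with tumors against treated skin. Those counts held no split like that in mock skin, so the trial does not cover the comparisons with mock skin.

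The members and gene lists were chosen with earlier results of these data known. Named were all 10 members, at most 5 called genes per other list and comparison by smallest p (not all are printed), nonclassical genes over 5 CPM, Zfp36, and the 10 genes most like the members. Alternatives were DESeq2 1.42.0, edgeR's exact test, RLE scaling, unscaled totals, no filter, a mean count of at least 10, 1 fit of all libraries, a replicate block, both identical columns kept, a separate term for mock replicate 1 (genotype comparison in mock skin), and each library left out. The ratios, their alternatives and the hair follicle list were added after seeing the data. Protein sequences were not used here.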

Additional observations from a re-analysis of the deposited data

How the results depend on the processing

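Of 1840 values of the 10 genes under alternatives, 222 changed sign, 3 of them called: in tumors against mock ΔEP skin, leaving out each library in turn gave -1.08 to 1.97 for H2-K1, -1.29 to 1.64 for B2m and -2.04 to 2.07 for Psmb8 on the log2 scale, the extremes coming without mock ΔEP replicate 1 and without replicate 2. The number of the 10 genes called ran, over fits leaving out 1 library, from 0 to 1 for ΔEP against fl/fl tumors, 0 to 4 for treated against mock fl/fl skin, 0 to 4 for tumors against mock fl/fl skin, 0 to 2 for tumors against treated fl/fl skin, 0 to 7 for tumors against mock ΔEP skin and 1 to 3 for tumors against treated ΔEP skin. Without the low-count filter these counts were 1 (ΔEP against fl/fl tumors), 2 (tumors against mock and against treated fl/fl skin) and 3 (tumors against mock ΔEP skin), where DESeq2, edgeR's exact test and the identical columns as 2 libraries also gave 3. Library totals gave 3 in tumors against treated fl/fl skin, and 1 fit of all libraries gave 0 there and 0 in ΔEP. The cause was not tested.

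With replicate number as a block, tumors against treated skin gave 0 calls in fl/fl and 2 in ΔEP. Where 3 pairs existed, no comparison had every same-numbered pair correlated over 0.1, so the numbers were not taken as pairing. The comparisons with mock ΔEP skin had 2 pairs each, and there every pair was over 0.1. Between genotypes in mock skin, r was 0.82 for replicate 1 and 0.63 for replicate 2. Mock libraries of the same number thus went together, and the main genotype test in mock skin did not use this.

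For the ratios, leaving out each library gave -0.58 to -0.088 for Psmb8 against treated and -0.96 to -0.26 against mock skin, -1.72 to -1.09 for Nlrc5 against mock skin, and for Cd274 -0.84 to -0.44 and -0.99 to -0.59. With B2m as denominator Cd274 was -0.86 (exact p 0.04) and -0.92 (exact p 0.055), and without mock replicate 1 of both genotypes Psmb8 was -1.27 (exact p 0.025) and Cd274 -0.84 (exact p 0.125) against mock skin.

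Over all genes, calls ranged from 0 to 2613 for ΔEP against fl/fl tumors, 0 to 2587 for treated against mock fl/fl skin, 1106 to 4316 and 2823 to 5509 for tumors against treated skin in fl/fl and ΔEP, and 30 to 3277 and 101 to 4573 against mock skin. The share of calls that were higher fell with library totals from 41.7% to 14.2% and from 40.5% to 18.6% against treated skin in fl/fl and ΔEP, and from 54.1% to 21.6% and from 49.4% to 32.3% against mock skin. Counts were lowest for Cd274, at 3 to 112 per library, and also low for Psmb9 (10 to 195) and Psmb8 (11 to 336).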
